A study of Mus musculus with 6 samples.

Results

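The genes described here are 54 genes of DNA replication and mitosis, taken by symbol from a fixed list of names. All 54 had a row among the 26329 genes of the deposited table. They were read as 24 replication genes, 21 mitotic genes and 9 genes of the G1 phase, which are the D and E cyclins, the kinases CDK4 and CDK6, the transcription factor E2F1 and the inhibitor p27. All 54 also passed the minimum level for testing, a mean of 1 FPKM, a read density per kilobase of gene model that is scaled to library size.

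D cyclins with CDK4 or CDK6, and later E cyclins, phosphorylate the retinoblastoma protein at the end of G1 and release E2F transcription factors, which switch on the genes of DNA replication. Mitotic genes follow later, through a complex of MuvB, B-MYB and FOXM1 that acts at a short promoter element, the cell cycle homology region, together with NF-Y at CCAAT boxes. In the young ovary the oocytes are arrested in meiotic prophase and do not divide. The pregranulosa cells around a primordial oocyte rest until the follicle is activated, and granulosa cells then proliferate.

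The 6 libraries were made from total RNA of mouse ovaries in culture, 3 with the solvent DMSO (Control) and 3 with ISRIB dissolved in DMSO. ISRIB is a small molecule that holds the translation initiation factor eIF2B active and so blunts the integrated stress response. The title of the study asks whether blocking that response activates primordial follicles through mTOR, and the question put here is whether transcripts of dividing cells differed between the groups. The sources used here do not give the strain, age, dose or culture time of these ovaries. They also do not say that replicates were separate animals or cultures, and the p-values therefore measure the spread between these libraries, which may be technical.

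No member passed the test between ISRIB and Control. Replication genes lay on both sides of 0, with 12 higher and 12 lower and a median log2 difference of −0.00. Of the 21 mitotic genes 16 were higher with ISRIB, with a median of 0.03. The count was 8 under TPM rescaling (each library set to the same sum), 8 without Control replicate 1 and 19 without Control replicate 3. That rescaling left 4653 of all 12922 genes tested higher, against 6696 before it. The histone variant Cenpa had the largest difference of the mitotic genes, 0.24. Of the G1 genes 6 of 9 were lower, with a median of −0.06, among them the D cyclins Ccnd1 and Ccnd2.

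The promoters of the 3 classes, which had been fixed by gene name, were described first. A promoter was taken as the 250 bases before to 50 bases after each RefSeq gene start on mouse build GRCm38.p6. A promoter was listed for 42 of the 54 genes. Among the G1 genes it was missing for Ccne2, Ccnd1 and Ccnd2. Each gene with a promoter was counted once in the shares below. Both strands were searched for E2F sites, spelled TTTCCCGC, TTTCGCGC, TTTGCCGC or TTTGGCGC, for the cell cycle homology region, spelled TTTGAA or TTCGAA, and for CCAAT. No spelling of one motif holds that of another, but E2F matches on the 2 strands can overlap. E2F sites stood in 9 of 19 replication promoters (47.4%), in 1 of 17 mitotic promoters (5.88%), that of Cdk1, and in 0 of 6 G1 promoters, against 2.6% of all 27025 genes with a promoter. The cell cycle homology region stood in 14 of 17 mitotic promoters (82.4%), in 4 of 19 replication promoters (21.1%) and in 0 of 6 G1 promoters, against 21.7% of all. CCAAT was found in 16 of 17 mitotic promoters (94.1%), 11 of 19 replication promoters (57.9%) and 2 of 6 G1 promoters (33.3%), against 41.1% of all. The homology region and CCAAT occurred together in 14 of 17 mitotic promoters (82.4%), against 9.65% of all genes with a promoter. A match describes these letters only and is not a bound site, and no match says only that these letters are not in the window.

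**Figure D1:**
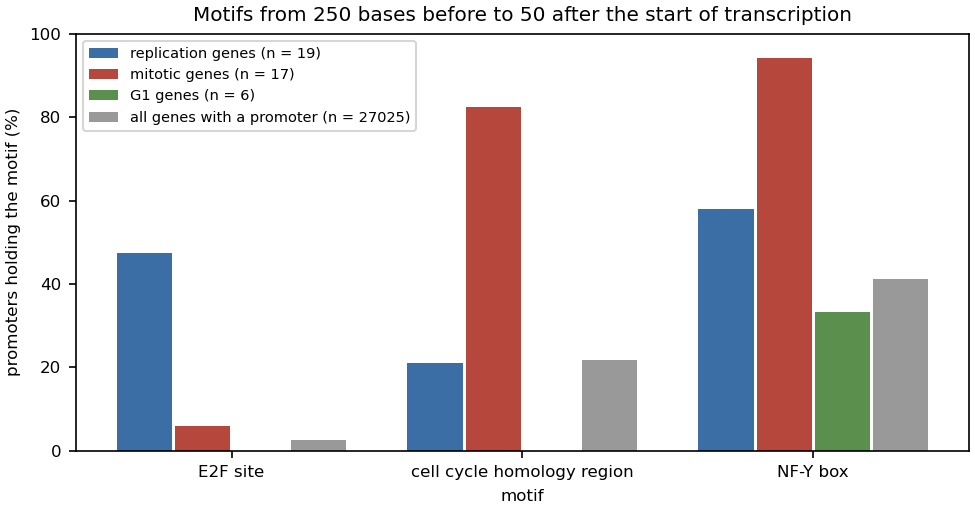
Share of promoters (percent, linear axis from 0) that hold an E2F site, a cell cycle homology region or an NF-Y (CCAAT) box, for the replication, mitotic and G1 genes and for all 27025 genes with a promoter. E2F sites reach 47.4% in replication genes and the homology region 82.4% in mitotic genes, and both bars of the G1 genes are at 0.

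Replication promoters with E2F sites are shown for Mcm5 and Mcm6, subunits of the MCM helicase that unwinds DNA at the fork, and for Pola1, the catalytic subunit of the polymerase that starts each strand. The stretches come from RefSeq on GRCm38.p6, 5′ to 3′ on the strand of the gene, and end at the last base before the gene start: Mcm5 at chr8:75109349-75109508 (plus strand), Mcm6 at chr1:128359706-128359865 (minus strand) and Pola1 at chrX:93632156-93632315 (minus strand). Capitals mark E2F sites and CCAAT boxes, on either strand.
Mcm5: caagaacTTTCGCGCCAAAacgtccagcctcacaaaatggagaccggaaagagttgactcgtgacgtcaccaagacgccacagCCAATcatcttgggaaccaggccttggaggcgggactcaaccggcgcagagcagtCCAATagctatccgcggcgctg
Mcm6: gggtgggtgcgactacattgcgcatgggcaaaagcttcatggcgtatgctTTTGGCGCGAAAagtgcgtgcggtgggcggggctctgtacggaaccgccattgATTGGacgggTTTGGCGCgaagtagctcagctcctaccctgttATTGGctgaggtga
Pola1: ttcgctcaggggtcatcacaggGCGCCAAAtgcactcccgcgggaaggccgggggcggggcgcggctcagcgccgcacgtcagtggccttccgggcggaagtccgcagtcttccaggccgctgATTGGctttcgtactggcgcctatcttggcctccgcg
The Mcm5 stretch holds a pair of overlapping E2F matches, which begin 153 and 149 bases before the gene start. In Mcm6 such an overlapping pair begins 110 and 106 bases before the start, with a further match 47 bases before it. Pola1 has a single E2F match, 138 bases before its start.

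Mitotic promoters are shown for Top2a, the topoisomerase that untangles sister chromatids, Cdk1, the kinase that drives entry into mitosis, Cdc20, an activator of the anaphase-promoting complex, and Kif11, the motor that pushes spindle poles apart. They are Top2a at chr11:99024190-99024349 (minus strand), Cdk1 at chr10:69352939-69353072 (minus strand), Cdc20 at chr4:118437353-118437503 (minus strand) and Kif11 at chr19:37376222-37376381 (plus strand), from the same source. The Cdk1 stretch ends 27 bases and the Cdc20 stretch 10 bases upstream of the RefSeq start. Capitals mark the cell cycle homology region, CCAAT boxes and, in Cdk1, an E2F site.
Top2a: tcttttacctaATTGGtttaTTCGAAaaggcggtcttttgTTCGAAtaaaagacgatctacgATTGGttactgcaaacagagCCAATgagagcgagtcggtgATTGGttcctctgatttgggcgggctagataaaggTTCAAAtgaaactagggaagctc
Cdk1: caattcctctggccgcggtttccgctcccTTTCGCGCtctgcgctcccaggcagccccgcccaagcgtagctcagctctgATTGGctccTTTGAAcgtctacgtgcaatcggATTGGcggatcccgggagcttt
Cdc20: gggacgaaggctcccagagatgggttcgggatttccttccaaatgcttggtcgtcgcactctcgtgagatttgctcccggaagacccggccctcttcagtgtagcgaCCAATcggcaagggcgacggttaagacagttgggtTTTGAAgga
Kif11: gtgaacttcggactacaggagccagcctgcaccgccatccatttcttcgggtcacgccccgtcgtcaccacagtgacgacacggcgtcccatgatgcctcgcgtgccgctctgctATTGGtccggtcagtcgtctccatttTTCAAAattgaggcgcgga
In Top2a, Cdc20 and Kif11 a homology region begins 23, 18 and 19 bases before the start, with the nearest CCAAT box 58, 53 and 45 bases before it. In Cdk1 the homology region begins 71 bases before the start, between CCAAT boxes at 80 and 48 bases. Cdk1 is the mitotic gene that also holds an E2F site, 131 bases upstream.

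Whole reads worked back from the FPKM added up to 34474821 to 38002135 per library, and 12922 genes were tested. With limma on log2(FPKM + 0.5), two-sided, 0 of the 12922 genes reached an adjusted p under 0.05 (0% called), and 2125 (16.4%) had an unadjusted p under 0.05. Of all genes tested 51.8% had a positive difference and the median was 0.01. Summed markers of ovary cell types were present in each library, with oocyte genes at 1532 to 1876 FPKM, theca and stroma at 1584 to 1766, granulosa at 509 to 682, endothelium at 199 to 257, pericytes and smooth muscle at 89.2 to 105, and immune cells at 70.6 to 81.9. Fshr, the follicle-stimulating hormone receptor of granulosa cells, averaged 0.492 FPKM, and Cyp17a1, a theca enzyme, 0.21. Control replicate 1 stood apart by surface epithelium genes, which summed to 431 FPKM there and to 357 to 364 in the other 5 libraries, and ISRIB replicate 1 by red cell genes, which summed to 329 FPKM there and to 42.2 to 76.8 elsewhere. In bulk tissue, fewer cells of a type and less RNA per cell cannot be told apart.

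Against that background, 6 of the 54 members (11.1%) had an unadjusted p under 0.05. The smallest adjusted p of a member was 0.231 by limma. The groups did not overlap for 8 members (14.8%), against 22.8% of all genes tested. In 4 of them all ISRIB libraries lay above all Control libraries, which held for 10.8% of all genes, and in the other 4 all lay below, which held for 12.0%. The 95% interval of the log2 difference lay within 0.5 of 0 for 53 of the 54 members, the exception being Ccnd1, and within 0.3 of 0 for 44. Differences inside these intervals remain possible at this spread between libraries.

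**Figure D2:**
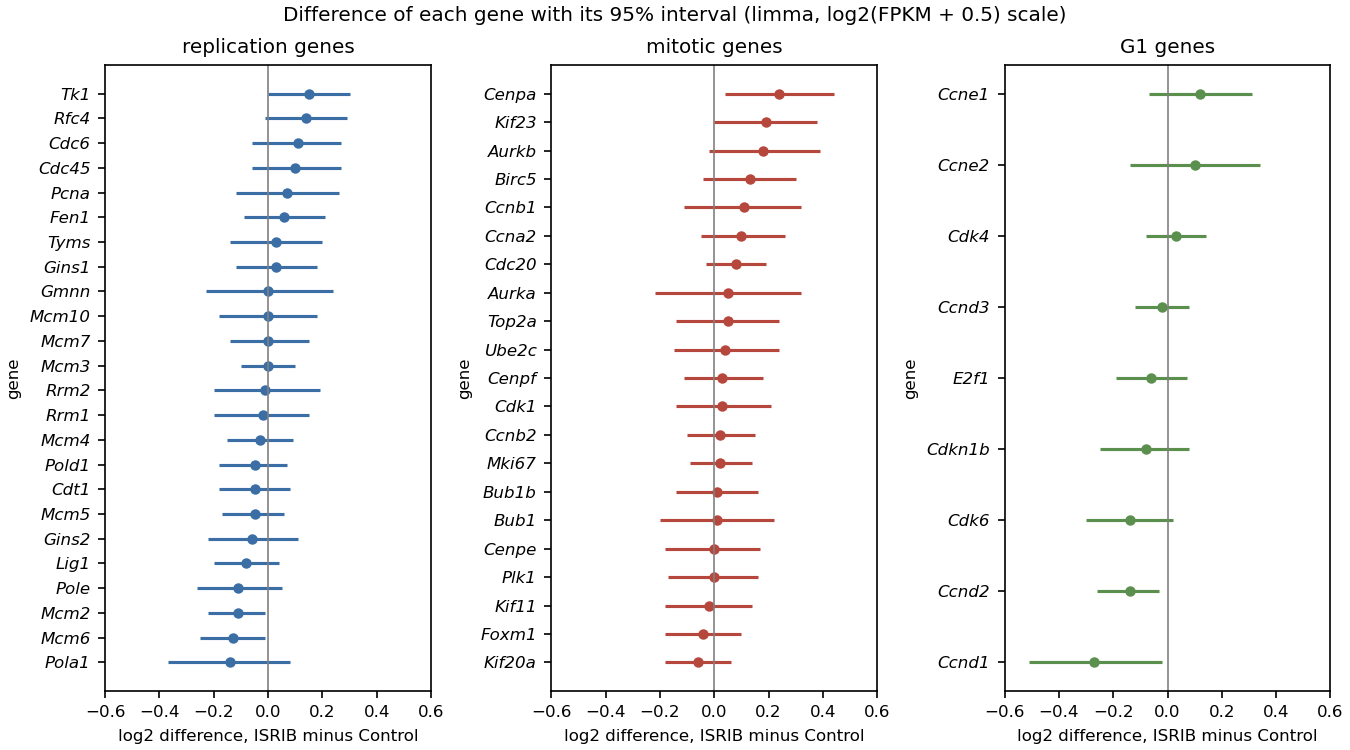
Log2 difference of ISRIB minus Control for the 54 members, with 95% intervals from limma (3 libraries per group), grouped by class. The points run from −0.27 (Ccnd1) to 0.24 (Cenpa), and 0 of the 54 has an adjusted p under 0.05. Under TPM rescaling 16 rather than 31 members are above 0, as are 4653 rather than 6696 of all 12922 genes tested.

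Among the replication genes, the 6 subunits of the MCM2-7 helicase were at similar levels per length of gene. Mcm7 was the highest, at 39.7 to 46.1 FPKM, above every library of Mcm6. Mcm6 at 31.4 to 37.1 FPKM, Mcm2 at 30.6 to 35.1, Mcm5 at 29.0 to 32.0, Mcm3 at 27.6 to 28.9 and Mcm4 at 26.1 to 28.7 followed. Neighbours in this order overlapped, except that every Mcm5 library was above every Mcm3 library. Mcm10, which helps to switch the helicase on and is no subunit of it, was lower, at 7.68 to 9.35 FPKM.

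Mcm2 measured 33.1, 33.0 and 35.1 FPKM in the Control libraries and 32.2, 30.8 and 30.6 with ISRIB. All 3 ISRIB libraries were below all 3 Control libraries. The means were 33.8 ± 1.19 and 31.2 ± 0.845 (SD, n = 3 each), a log2 difference of −0.11 (SE 0.046) with a limma adjusted p of 0.281. Mcm6 measured 36.2, 34.6 and 37.1 FPKM in Control and 31.4, 32.4 and 34.6 with ISRIB, and here the groups met. Its log2 difference was −0.13 (SE 0.052), with a limma adjusted p of 0.27. Mcm3 and Mcm7, subunits of the same ring, had intervals of −0.10 to 0.10 and −0.14 to 0.15 on the log2 scale. Mcm4 and Mcm5 differed by −0.03 and −0.05, and under TPM rescaling all 6 subunits were lower with ISRIB, by −0.05 to −0.18. Of all 12922 genes tested 8269 were lower under that rescaling, with a median of −0.04.

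The helicase is loaded by Cdc6 and Cdt1 and restrained by geminin (Gmnn). Cdc6 was among the lowest members and differed without overlap, at 3.14, 3.18 and 3.10 FPKM in Control and 3.45, 3.34 and 3.47 with ISRIB. Every ISRIB library was above every Control library, by a log2 difference of 0.11 (SE 0.0713) with a limma adjusted p of 0.485. Cdt1, at 24.1 to 27.4 FPKM, and Gmnn, at 6.62 to 8.59, overlapped between groups.

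Cdc45 and the GINS subunits join the MCM ring to make the working helicase. Cdc45 measured 4.02, 4.22 and 4.37 FPKM in Control and 4.37, 4.50 and 4.78 with ISRIB. The ISRIB libraries were all higher, the lowest of them by less than the rounding of these values, with a log2 difference of 0.10 (SE 0.0715) and a limma adjusted p of 0.509. Its partners Gins1, at 6.84 to 7.49 FPKM, and Gins2, at 23.5 to 28.6, overlapped between the groups.

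Enzymes that supply nucleotides were read next. Tk1, thymidine kinase of the salvage route, measured 12.1, 11.2 and 12.6 FPKM in Control and 13.4, 12.6 and 14.0 with ISRIB. All ISRIB libraries were above all Control libraries, the closest pair being equal at 3 digits. The means were 12.0 ± 0.708 and 13.3 ± 0.653 (SD, n = 3 each), a log2 difference of 0.15 (SE 0.0637), the largest of the class, with a limma adjusted p of 0.301. Tyms, which makes thymidylate anew, ran from 5.46 to 6.36 FPKM, and the ribonucleotide reductase subunits Rrm1 and Rrm2 from 27.4 to 33.9 and from 15.7 to 19.6. These 3 genes overlapped between the groups.

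At the fork, Pcna, the sliding clamp that holds polymerases on DNA, had the highest level of the class and a wide spread within each group. It measured 61.5, 66.7 and 72.7 FPKM in Control and 78.4, 65.3 and 67.4 with ISRIB. ISRIB replicate 1 was the highest library and the other 2 lay inside the Control range. The log2 difference was 0.07 (SE 0.0829) with a limma adjusted p of 0.715, and −0.01 without ISRIB replicate 1.

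Rfc4, a subunit of the clamp loader, measured 15.6, 16.6 and 18 FPKM in Control and 19.2, 18.6 and 17.7 with ISRIB, so that ISRIB replicate 3 fell within the Control range. Its log2 difference of 0.14 (SE 0.0643, limma adjusted p 0.324) was 0.07 after the trend of the levels on gene length was removed within each library. It was 0.09 without Control replicate 1. Among the polymerases, Pola1 measured 6.28, 7.75 and 7.87 FPKM in Control and 6.49, 6.08 and 7.08 with ISRIB. The groups overlapped, because Control replicate 1 was low as well, and the log2 difference was −0.14 (SE 0.098; limma adjusted p 0.504), with a range of −0.24 to −0.09 when each library was left out, the lowest without Control replicate 1. Pole, catalytic subunit of the leading-strand polymerase, measured 12.4, 12.6 and 11.9 FPKM in Control and 12.4, 11 and 10.7 with ISRIB, a log2 difference of −0.11 (SE 0.0675; limma adjusted p 0.467), which was −0.17 without ISRIB replicate 1 and −0.07 without ISRIB replicate 3. Pold1 of the lagging-strand polymerase, at 14.0 to 15.6 FPKM, Fen1, the nuclease that trims Okazaki fragments, at 14.2 to 16.4, and Lig1, the ligase that joins them, at 26.5 to 30.7, also overlapped.

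Of the 24 replication genes, 1 was higher and 2 were lower at an unadjusted p under 0.05 (12.5% in all, against 16.4% of all genes). Without overlap, 3 of 24 lay above and 1 below, against 10.8% and 12.0% of all genes, and the differences ran from −0.14 to 0.15. Rescaling to TPM left 6 rather than 12 higher and moved the class median to −0.05, while it moved the median of all genes to −0.04.

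**Figure D3:**
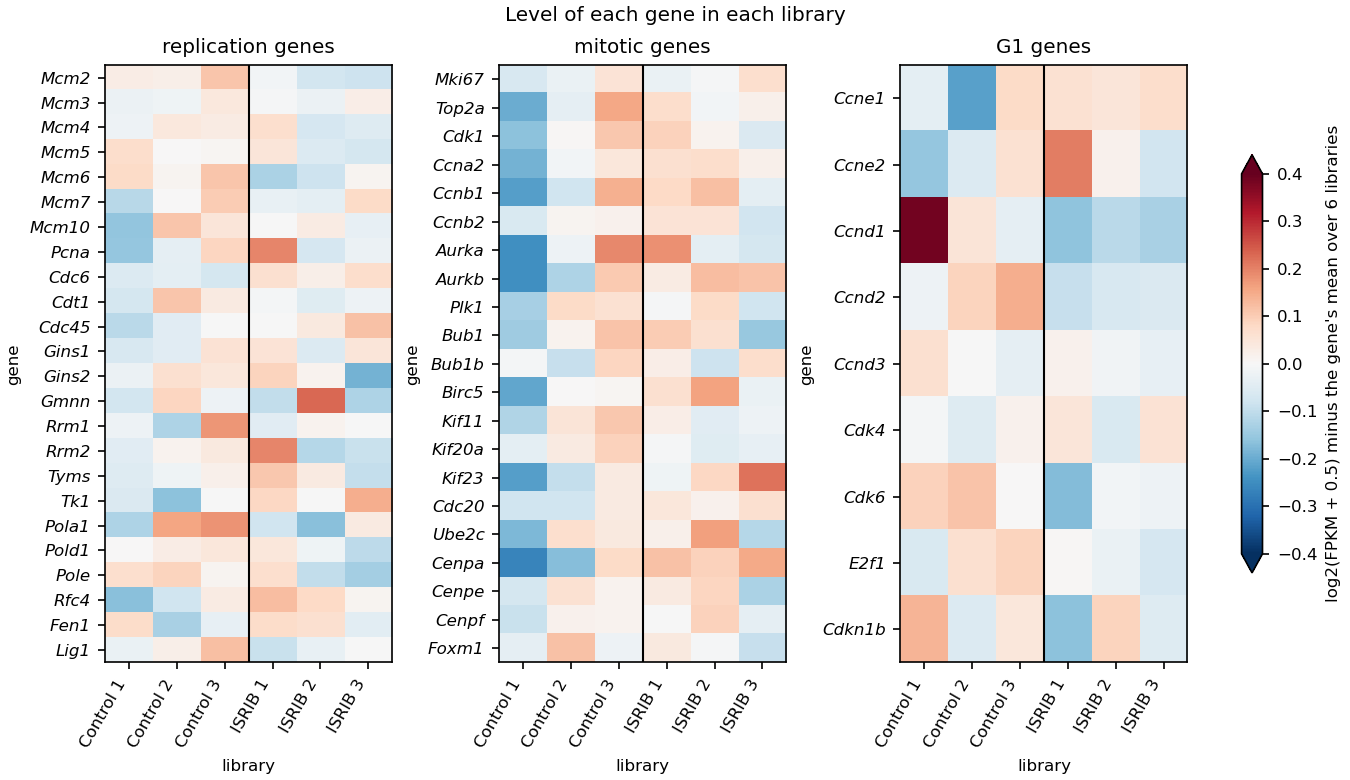
Heat map of the 54 members (rows, by class) in the 6 libraries (columns), coloured by the log2 deviation from the mean of the gene over all libraries. The column of Control replicate 1 is the lowest for 15 of the 21 mitotic genes, and Control replicate 3 is the highest for 8 of them.

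Among the mitotic genes, Mki67, the Ki-67 antigen used to count dividing cells, measured 22.6, 23.2 and 24.6 FPKM in Control and 23.2, 23.6 and 24.8 with ISRIB. The libraries of the groups interleaved. The means were 23.5 ± 1.03 and 23.9 ± 0.805 (SD, n = 3 each), and the log2 difference of 0.02 had an interval of −0.09 to 0.14 (limma adjusted p 0.852), with its sign turned to −0.03 under TPM rescaling and to −0.00 without Control replicate 1. Top2a measured 24.0, 26.9 and 30.8 FPKM in Control and 29.0, 27.4 and 28.0 with ISRIB. Control held both its lowest and its highest library, and the interval was −0.14 to 0.24.

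The kinase and cyclins of mitotic entry came next. Cdk1 measured 13.9, 15.7 and 16.9 FPKM in Control and 16.7, 15.8 and 15.0 with ISRIB. Ccna2, cyclin A, which acts from S phase into early mitosis, measured 19.8, 22.5 and 23.4 in Control and 23.7, 23.8 and 23.0 with ISRIB, a log2 difference of 0.10 (SE 0.0657; limma adjusted p 0.465). Ccnb1, the cyclin B partner of CDK1, measured 19.9, 22.0 and 25.7 in Control and 24.6, 25.3 and 22.6 with ISRIB, a log2 difference of 0.11 (SE 0.0919; limma adjusted p 0.602). Without Control replicate 1 these values were 0.04 for Ccna2 and 0.02 for Ccnb1, and without Control replicate 3 they were 0.15 and 0.20. In each of these 3 genes Control replicate 1 was the lowest library, and the groups overlapped. Ccnb2, another cyclin B, ran from 27.8 to 30.5 FPKM, and Foxm1, a transcription factor of this gene set, from 17.3 to 20.1.

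Genes of the centromere and of the last steps of division follow. Cenpa, the histone H3 variant that marks centromeres (chr5:30666777-30674830, plus strand, GENCODE M21 on GRCm38), measured 13.0, 13.9 and 16.6 FPKM in Control and 17.1, 16.8 and 17.5 with ISRIB. All 3 ISRIB libraries were above all 3 Control libraries, and Control replicate 3 came within a small step of them. The means were 14.5 ± 1.89 and 17.1 ± 0.328 (SD, n = 3 each), a log2 difference of 0.24 (SE 0.0856; 95% interval 0.04 to 0.44) with a limma adjusted p of 0.231. It was 0.19 under TPM rescaling, 0.19 with the length trend removed and 0.17 without Control replicate 1. The centromere-associated proteins Cenpe, at 6.52 to 7.64 FPKM, and Cenpf, at 8.95 to 10.2, overlapped between the groups.

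Aurkb, the kinase of the chromosomal passenger complex, measured 10.8, 11.8 and 13.9 FPKM in Control and 13.2, 14.1 and 14.0 with ISRIB. Its partner Birc5, survivin, measured 26.4, 30.6 and 30.7 in Control and 32.0, 34.2 and 30.0 with ISRIB. Kif23, a motor of the central spindle needed for cytokinesis, measured 12.8, 14.0 and 15.4 in Control and 14.8, 15.9 and 17.5 with ISRIB. All 3 genes were lowest in Control replicate 1 and overlapped between the groups. The log2 difference was 0.18 (SE 0.0888; limma adjusted p 0.352) for Aurkb. It was 0.13 (SE 0.0736; limma adjusted p 0.41) for Birc5 and 0.19 (SE 0.083; limma adjusted p 0.314) for Kif23. Without Control replicate 1 the value was 0.10 for Aurkb, 0.06 for Birc5 and 0.12 for Kif23, and without Control replicate 3 it was 0.28 for Aurkb.

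**Figure D4:**
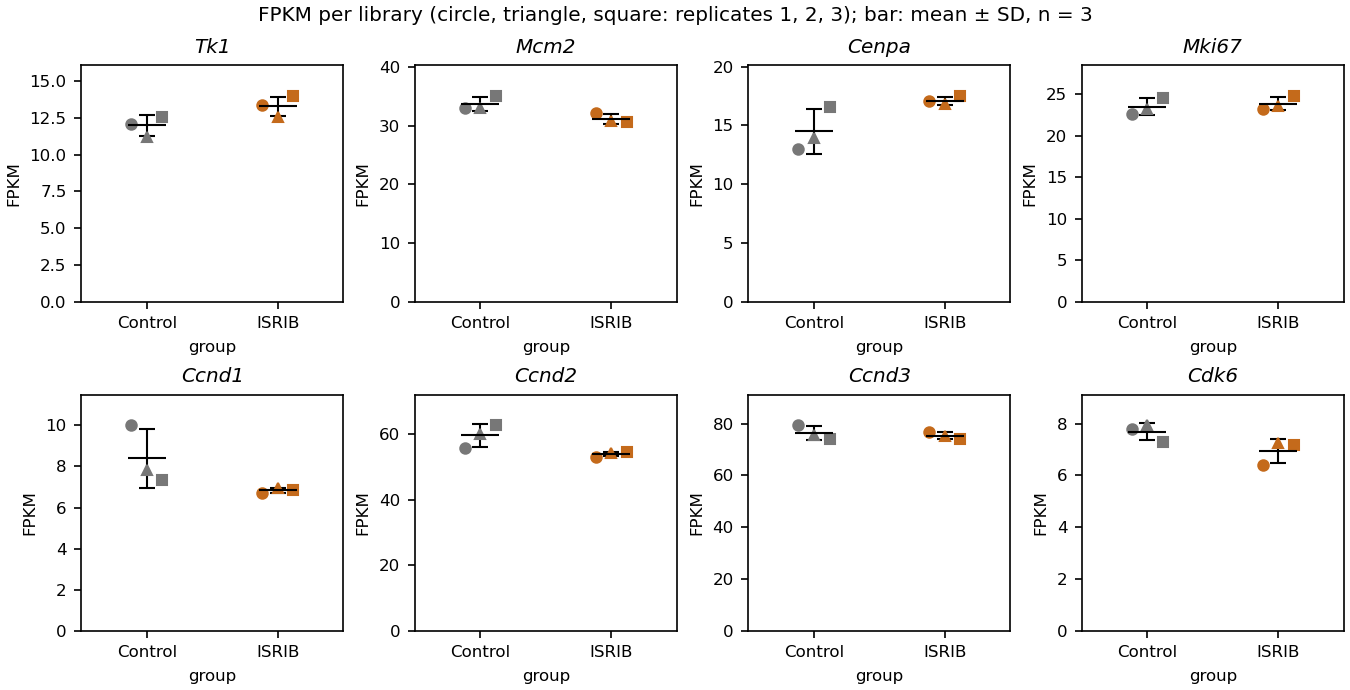
FPKM (linear axes from 0) of members described in the text, one point per library, with the mean and SD (n = 3) of Control and ISRIB. Cenpa has every ISRIB point above every Control point, as has Tk1 apart from a pair drawn level at 12.6 FPKM. Ccnd1, Ccnd2, Cdk6 and Mcm2 have every ISRIB point below every Control point, and in Mki67 and Ccnd3 the groups overlap.

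The other mitotic genes overlapped between the groups. Cdc20 measured 30.5, 30.5 and 33.1 FPKM in Control and 33.3, 32.7 and 33.8 with ISRIB, a log2 difference of 0.08 (SE 0.0482; limma adjusted p 0.432). Ube2c, the ubiquitin-conjugating enzyme of the anaphase-promoting complex, had the highest level per length of the class, at 134 to 170 FPKM. Aurka and Plk1, kinases of the spindle poles, ran from 11.9 to 16.3 and from 21.2 to 24.6. The checkpoint genes Bub1 and Bub1b ran from 9.58 to 11.6 and from 14.9 to 16.9, and the motors Kif11 and Kif20a from 10.5 to 12.4 and from 16.3 to 18.

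The count of 16 of 21 mitotic genes higher with ISRIB moved with single libraries. Without Control replicate 1 it was 8, with a median of −0.00, and under TPM rescaling also 8, with a median of −0.02. It was 18 without Control replicate 2 and 19, with a median of 0.07, without Control replicate 3. Without ISRIB replicates 1, 2 and 3 it was 12, 13 and 16. TPM rescaling left 4653 rather than 6696 of all 12922 genes tested higher, with a median of −0.04 over all genes. In Control replicate 1 the mitotic genes had a mean log2 deviation of −0.14 from their mean over all libraries, and in the other 5 libraries one of −0.01 to 0.07. The surface epithelium genes were highest in the same library, with the keratin gene Krt8 at 74.7 FPKM there and 45.6 to 52.5 elsewhere. The granulosa genes had their lowest sum there, 509 FPKM against 541 to 682 in the other libraries. That sum includes Amh, the anti-Müllerian hormone of growing follicles, at 65.2 FPKM there and 100 to 141 elsewhere. It also includes Inha, at 86.7 FPKM there and 93.1 to 173 elsewhere. Whether the sum was lowest without Amh and Inha was not tested. Of the 8 surface epithelium genes all 8 were lower with ISRIB and 0 had an unadjusted p under 0.05. Their part in the mitotic difference was not tested.

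**Figure D5:**
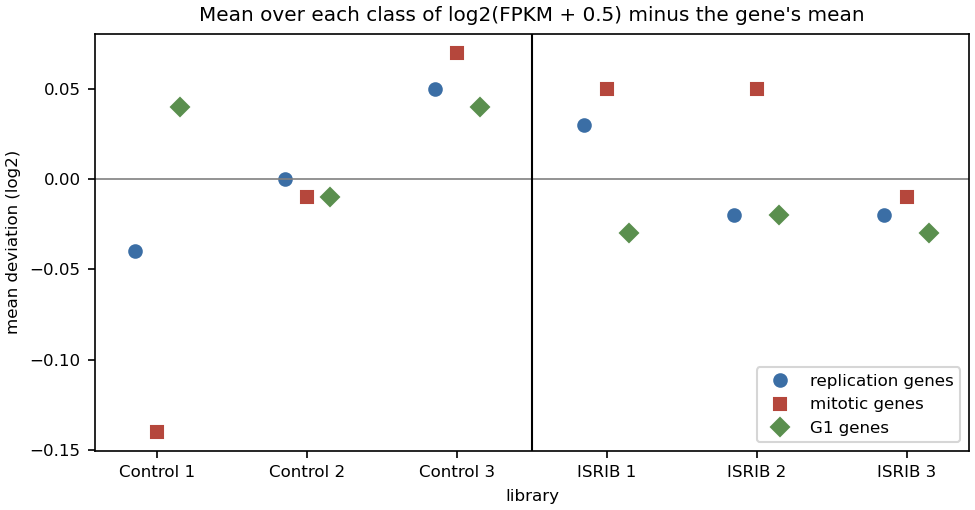
Mean log2 deviation of the replication, mitotic and G1 genes from their mean over all libraries, one point per library. The mitotic genes run from −0.14 in Control replicate 1 to 0.07 in Control replicate 3, and their ISRIB libraries lie between these, at −0.01 to 0.05. The G1 genes lie at −0.03 to −0.02 in the ISRIB libraries and at −0.01 to 0.04 in Control.

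The G1 genes spanned the widest range of levels per length. Cdk4 was the highest, at 166 to 180 FPKM, followed by Cdkn1b at 76.5 to 94.2 and Ccnd3 at 74.0 to 79.3, whose ranges overlapped. Ccnd2 at 53.2 to 62.8 and E2f1 at 17.0 to 19.0 came next, each apart from its neighbours. Ccnd1 at 6.69 to 10 and Cdk6 at 6.41 to 7.93 overlapped, and the E cyclins Ccne1, at 4.82 to 6.02, and Ccne2, at 2.60 to 3.47, were the lowest.

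Ccnd2, the D cyclin that granulosa cells of mice need in order to proliferate (chr6:127125162-127152193, minus strand), measured 55.9, 60.3 and 62.8 FPKM in Control and 53.2, 54.2 and 54.5 with ISRIB. All ISRIB libraries were below all Control libraries. The means were 59.7 ± 3.51 and 54.0 ± 0.665 (SD, n = 3 each), a log2 difference of −0.14 (SE 0.0503; 95% interval −0.26 to −0.03) with a limma adjusted p of 0.231. With the length trend removed it was −0.08.

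Ccnd1, cyclin D1 (chr7:144929931-144939925, minus strand), measured 10, 7.82 and 7.33 FPKM in Control and 6.69, 6.95 and 6.84 with ISRIB. The ISRIB libraries lay close together, below all Control libraries, and Control replicate 1 stood above the other 2. The means were 8.39 ± 1.43 and 6.83 ± 0.13 (SD, n = 3 each), a log2 difference of −0.27 (SE 0.107; 95% interval −0.51 to −0.02) with a limma adjusted p of 0.274. Without Control replicate 1, in which the surface epithelium genes were highest, it was −0.14 with a limma adjusted p of 0.445. Ccnd3, the third D cyclin, measured 79.3, 75.7 and 74.0 FPKM in Control and 76.8, 75.1 and 74.1 with ISRIB, with an interval of −0.12 to 0.08.

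Cdk6 measured 7.80, 7.93 and 7.30 FPKM in Control and 6.41, 7.23 and 7.19 with ISRIB, again with all ISRIB libraries below. Its log2 difference was −0.14 (SE 0.0698; limma adjusted p 0.367), with −0.06 after the length trend was removed and −0.08 without ISRIB replicate 1. The related kinase Cdk4 measured 172, 167 and 175 FPKM in Control and 179, 166 and 180 with ISRIB, an interval of −0.08 to 0.14. Cdkn1b, the p27 inhibitor that in mice holds primordial follicles at rest, measured 94.2, 82.6 and 88.6 FPKM in Control and 76.5, 91.2 and 82.7 with ISRIB. Its groups overlapped, with a log2 difference of −0.08 (SE 0.0732; limma adjusted p 0.597) that ran from −0.15 without ISRIB replicate 2 to −0.02 without ISRIB replicate 1. Ccne1 measured 5.52, 4.82 and 6.02 FPKM in Control and 5.96, 5.90 and 6 with ISRIB, and Ccne2 measured 2.60, 2.82 and 3.10 in Control and 3.47, 2.99 and 2.77 with ISRIB. Both E cyclins overlapped between the groups, and so did E2f1.

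Without overlap, 3 of the 9 G1 genes lay below and 0 above, against 12.0% and 10.8% of all genes, and 2 of 9 had an unadjusted p under 0.05, against 16.4%. Endothelium genes were lower beside them, in 10 of 10 genes with a median log2 difference of −0.16, 4 of them at an unadjusted p under 0.05 and 5 without overlap. Their summed level was 231 to 257 FPKM in Control and 199 to 230 with ISRIB, and their part in the G1 values was not tested. The differences of the 54 members ran with implied gene length, longer genes lower, with Pearson's r of −0.37 and Spearman's rho of −0.4. Over all genes tested these were −0.318 and −0.361, and genes are not independent of each other in such a correlation. The part of gene length in the values of the long genes Ccnd2 and Cdk6 was not tested beyond the corrected values given above.

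Other genes of the same processes were read in 3 wider lists, which were chosen with earlier results of these data known, and 0 of their genes passed. The genes named from each list were picked by smallest p in each direction. Of 44 further replication genes 28 were higher (18 under TPM rescaling) at a median of 0.03, and 7 (15.9%) had an unadjusted p under 0.05, against 16.4% of all genes. Over all 12922 genes tested TPM rescaling left 4653 rather than 6696 higher, which bears on the counts of each of the 3 lists. Dut, which removes dUTP from the nucleotide pool, measured 15.1, 14.8 and 15.9 FPKM in Control and 17.2, 17.3 and 17.4 with ISRIB, a log2 difference of 0.17 with a limma adjusted p of 0.152. All ISRIB libraries were above all Control libraries. Tipin of the fork protection complex (0.20, limma adjusted p 0.172) also lay above without overlap, while Rfc1, the large subunit of the clamp loader (−0.13, limma adjusted p 0.241), lay below. In this list 10 of 44 genes (22.7%) did not overlap, against 22.8% of all genes tested.

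Of 70 further mitosis genes 42 were higher (24 under TPM rescaling) at a median of 0.01. An unadjusted limma p under 0.05 was found for 4 (5.71%), against 16.4% of all genes tested. Fbxo5, the EMI1 inhibitor of the anaphase-promoting complex, measured 7.40, 6.61 and 8.07 FPKM in Control and 9.29, 8.76 and 8.51 with ISRIB, a log2 difference of 0.25 with a limma adjusted p of 0.192. Kif14, a motor of cytokinesis, measured 8.17, 8.74 and 8.22 in Control and 7.08, 7.57 and 6.14 with ISRIB, a log2 difference of −0.26 with a limma adjusted p of 0.192. These genes did not overlap between the groups, and their opposite directions follow from the way they were picked. In this list 4 of 70 genes (5.71%) did not overlap, against 22.8% of all genes tested.

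Of 32 further G1 and E2F genes 21 were higher (13 under TPM rescaling) at a median of 0.02. An unadjusted limma p under 0.05 was found for 4 (12.5%), against 16.4% of all genes tested. Cdk2, the partner of the E cyclins, measured 18.9, 19.6 and 19.4 FPKM in Control and 21.8, 21.3 and 22.6 with ISRIB, a log2 difference of 0.17 (SE 0.046) with a limma adjusted p of 0.136, the smallest of the 3 lists. Every ISRIB library was above every Control library. Cdkn2d, an inhibitor of CDK4 and CDK6, measured 4.92, 6.18 and 5.87 in Control and 6.65, 7.44 and 7.21 with ISRIB, a log2 difference of 0.31 (limma adjusted p 0.174). E2f2, an activating E2F, measured 2.53, 2.78 and 3.23 in Control and 2.07, 2.29 and 2.14 with ISRIB, a log2 difference of −0.32 (limma adjusted p 0.196). Neither of these overlapped between the groups. In this list 6 of 32 genes (18.8%) did not overlap, against 22.8% of all genes tested.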

How the data were processed

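Total RNA was sequenced in 3 Control and 3 ISRIB libraries of cultured ovary, and groups were taken from the titles. The authors deposited FPKM for each library, with no replicates pooled. Build mm10 and the tools DESeq2, R 3.2.0, HTSeq, HISAT2 and fastp are listed, with no roles, per the submitters' processing notes. The sources used here do not give the annotation or strand setting, and overlapping and antisense genes may share reads. The FPKM held whole reads (100.0% of genes, tolerance 0.01 read), which gave depths of 34474821 to 38002135 reads. Reads of a gene that share a divisor in all libraries come back divided. This was taken to hold for Aurka, whose implied length was 569 bases. A member other than Aurka rested on at least 295 reads in each library.

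Log2(FPKM + 0.5) was fitted, for the 12922 genes averaging 1 FPKM or more, with limma 3.58.1 in R 4.3.3 (empirical Bayes with an intensity trend, Benjamini-Hochberg over all genes); this scale understates changes of low genes. The members and lists were chosen with earlier results of these data known, and no list was tested as a set. All members may be named, and from each wider list up to 3 genes per direction by smallest p, not all of which are reported here. Alternatives were pseudocounts of 0.1 and 1, no filter and a mean of at least 5, TPM, median-of-ratios and quantile scaling, no trend, robust fitting, array weights, a replicate block, omission of each library, voom on the recovered reads, and removal of a loess trend (span 0.5) on length. The scripts were tested on simulated data. Promoters came from RefSeq (GRCm38.p6) and positions from GENCODE M21, whose build GRCm38 is mm10, read with Python 3.11.15. Replicates differed beyond sampling noise (chi-square per gene between replicates 8.93 to 23.1).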

Additional observations from a re-analysis of the deposited data

How the results depend on the processing

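Under every alternative run, 0 of the 54 members had an adjusted p under 0.05, and the smallest was 0.104, under TPM rescaling. Over all genes, 0 calls became 8 with a mean FPKM of at least 5, 19 under TPM rescaling, 16 with array weights, 9 with the length trend removed and 120 with voom on the recovered reads. With the replicate number as a block 11 genes were called. The labels do not say whether the numbers pair the samples. Deviations from the group mean correlated at −0.19, −0.09 and 0.19 between same-numbered libraries, and 2 of 6 libraries were closest to their own number. With 3 libraries per group these values cannot settle whether the samples were paired. The median of the replication genes was −0.05 under TPM rescaling, and that of the G1 genes −0.11 under TPM rescaling, −0.03 with array weights and −0.06 to −0.03 when each library was left out. Of 832 values of 44 genes followed one by one, 819 kept their direction and 13 turned. These 44 leave out some of the members described above. Over all 54 members, 31 were above 0 in the main fit and 16 under TPM rescaling, so that members outside the 44 turned as well. Among the 44, those that turned under TPM rescaling were Mki67 (−0.03), Top2a (−0.00), Cdk1 (−0.02) and Cdk4 (−0.02). Cdk4 was also −0.06 under quantile normalization and −0.03 with the length trend removed. Leaving out each library gave −0.00 to 0.06 for Mki67 (turned without Control replicate 1 or ISRIB replicate 3), −0.03 to 0.14 for Top2a and −0.04 to 0.01 for Ccnd3 (turned without Control replicate 1). For Cdk1 it gave −0.04 to 0.10 (turned without replicate 1 of either group) and for Pcna −0.01 to 0.13 (turned without ISRIB replicate 1). The cause was not tested. Apart from Aurka, the least read member had 295 reads in a library, so that counting error adds to the spread between libraries in the lowest members.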

Other observations

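By the level over the 6 libraries, the tested genes outside the lists that were most like the mean of the mitotic genes were Smarce1, a chromatin remodelling subunit (Pearson's r 0.993), Nefh, a neurofilament gene (0.985), Bard1, the partner of BRCA1 (0.978), Cst8, a cystatin gene (0.967), and Cstf1, a cleavage stimulation factor subunit (0.967). All 5 were lowest in Control replicate 1. Smarce1 ran from 42.7 to 47.1 FPKM and Nefh from 1.21 to 1.75. Of the 12922 genes tested, 718 had an r above 0.7 with that mean. So did 14 of the 21 mitotic genes themselves, each of which is part of the mean, which raises its r. The same held for 3 of the 24 replication genes, 1 of the 9 G1 genes and 18 of the 70 further mitosis genes. These correlations describe 6 libraries, in each of which all genes share the depth and the mix of cells of that library. The 5 genes named were picked from all genes tested.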
